A study of Rattus norvegicus with 144 samples.

Results

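The liver response to AMG A at 3 mg/kg was read in 12 treated rats and 12 controls given 0 mg/kg, which are 24 of the 144 arrays of the series. Both groups were chosen by their titles, and each held 4 rats on day 1, 4 rats on day 4 and 4 rats on day 14. All were male Sprague Dawley rats of 8 to 10 weeks, and no allele, transgene or surgery is labelled. AMG A and AMG B were dosed daily by mouth in a toxicogenomics study at doses set with their antiangiogenic action in view; no structure is given for AMG A in these sources. A further 12 liver arrays came from rats given AMG A at 30 mg/kg on the same days, and they are used below to set the low dose beside the high one. Within a tissue every array has its own animal number, so replicates are separate rats, and p-values measure the spread between rats.

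Pooled over the 3 days, 165 of 10411 genes (1.58%) differed from control, 102 higher and 63 lower, and 1667 (16%) had an unadjusted p under 0.05. The median rise was 0.31 and the median fall was -0.39 on the score scale explained below. Cyp1a2, a liver enzyme that metabolises drugs, rose and was higher in every treated rat than in any control of its day, and it was the gene with the smallest p-value between 3 and 30 mg/kg. Ghrhr, the receptor for growth hormone-releasing hormone, and Chac1, an enzyme that breaks down glutathione, fell. On single days Chac1 alone passed the test, on day 4.

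Antiangiogenic compounds act on the growth of blood vessels, which depends on vascular endothelial growth factor (VEGF) and its receptors on endothelial cells. The liver is built mostly of hepatocytes and holds a dense bed of sinusoidal endothelium, and hepatocytes clear many drugs from the blood. Cyp1a2 and Cyp1a1 are the classic targets of the aryl hydrocarbon receptor (AhR), a transcription factor that many planar foreign compounds activate. In rodent liver Cyp1a2 is made mainly by hepatocytes even without such a compound.

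Expression was measured on Affymetrix arrays and is given as a score. Each probe set was standardised across the arrays of all tissues of the series, centred near 0 with an SD of about 1, so a difference of 1 means 1 SD of that probe set over liver, adrenal and pancreas, and it is not a fold change. The 10411 genes are those with at least 1 probe set that names them alone. Effects are differences of group means from limma, with Benjamini-Hochberg adjusted p-values and a threshold of 0.05. The pooled effect is the mean of the differences on days 1, 4 and 14, each taken against the controls of its own day.

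The arrays looked like liver. The mean score of 18 hepatocyte genes such as Alb (albumin) lay between 0.95 and 1.21 in the controls and between 1.01 and 1.26 at 3 mg/kg, while that of 12 genes of pancreatic acinar cells lay between -0.44 and -0.43 in both groups. The mean of 6 adrenal cortex genes lay between -0.65 and -0.36 in the controls and between -0.59 and -0.34 at 3 mg/kg. The SD of the scores of an array ranged from 0.63 to 0.71, and no pair of arrays correlated above 0.792. Signal over background, scan dates and other batches are unknown here, so a batch effect was not tested.

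Cyp1a2 is described first because it was also called between the doses and with AMG B. The control scores were 0.42, 0.39, 0.33 and 0.13 on day 1, and the treated scores of that day were 0.90, 0.74, 0.71 and 0.72. On day 4 the controls had 0.28, 0.40, 0.35 and 0.53 and the treated rats 0.75, 0.65, 0.68 and 0.62. On day 14 the controls had 0.33, 0.16, 0.14 and 0.10, against 0.40, 0.54, 0.78 and 0.73. All 4 treated rats were above all 4 controls on each day, although the lowest treated value of day 14 lay within the control range of the other days. The pooled rise was 0.39 (95% interval 0.26 to 0.51, 12 rats against 12, limma adjusted p = 0.00392). By day the rise was 0.45, 0.28 and 0.43, and none of these passed alone (limma adjusted p = 0.0935, 0.541 and 0.185). Leaving out each of the 24 rats in turn kept the call, with rises of 0.37 to 0.41; without day 1 the rise was 0.36 and the limma adjusted p = 0.0749.

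The stretch of 250 bases before the start of the Cyp1a2 gene is printed because it is the promoter of the 1 gene called both at 3 mg/kg and between the doses. It lies on the minus strand of GRCr8 at chr8:66978150-66978399, comes from RefSeq, and is written 5′ to 3′ along the gene, with the match to the TATA box TATAAAA in capitals. The Chac1 stretch, on the plus strand at chr3:126795881-126796130, is shown with it because Chac1 gave the only call on a single day. Its capitals mark the match to TGATGNAAN, the core searched for the stress factor ATF4, read on the opposite strand.
Cyp1a2: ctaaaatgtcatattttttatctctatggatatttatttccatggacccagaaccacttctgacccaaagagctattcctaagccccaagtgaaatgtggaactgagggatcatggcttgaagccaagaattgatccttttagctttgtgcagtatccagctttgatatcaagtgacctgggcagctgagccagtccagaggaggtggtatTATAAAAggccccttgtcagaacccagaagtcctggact
Chac1: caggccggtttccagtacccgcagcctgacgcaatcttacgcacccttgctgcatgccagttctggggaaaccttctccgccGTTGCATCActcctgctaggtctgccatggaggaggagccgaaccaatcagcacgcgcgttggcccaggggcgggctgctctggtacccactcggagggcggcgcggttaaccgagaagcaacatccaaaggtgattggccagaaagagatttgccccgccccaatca
The TATA match of Cyp1a2 begins 39 bases before the start, and TATAAAA occurs on either strand in 5.38% of 33469 rat promoters of this length. GCGTG, the core that AhR reads, has 0 matches on either strand of this Cyp1a2 window and 1 match in that of Chac1, and 25.9% of all promoters hold it. TGATGNAAN occurs in 3.38% of promoters. These are matches of letters in a short window and say nothing about binding.

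Among the falls, Ghrhr had the smallest p-value of all genes. Its control scores were 0.01, -0.21, 0.46 and 0.38 on day 1, and the treated scores were -0.43, -0.83, -0.55 and -0.65. On day 4 the controls had -0.35, -0.07, -0.67 and 0.01 and the treated rats -0.68, -0.62, -0.62 and -0.72, and on day 14 the controls had -0.02, -0.33, -0.45 and -0.29 against -0.65, -0.56, -0.89 and -1.08. The groups did not overlap on days 1 and 14, and on day 4 the control at -0.67 lay among the treated rats. Ghrhr fell by 0.56 pooled (95% interval -0.73 to -0.39, limma adjusted p = 0.00225). The receptor is known from the pituitary. Among the day 14 controls of the other table, where tissues can be set side by side, it had -0.11 ± 0.21 in liver, -0.35 ± 0.10 in adrenal and 1.89 ± 1.03 in pancreas (SD, n = 4 each). A second Ghrhr probe set differed by -0.21 and did not pass. The mean of both probe sets differed by -0.39 (limma adjusted p = 0.0564), and without day 1 the difference was -0.46 (adjusted p = 0.0749).

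**Figure D1:**
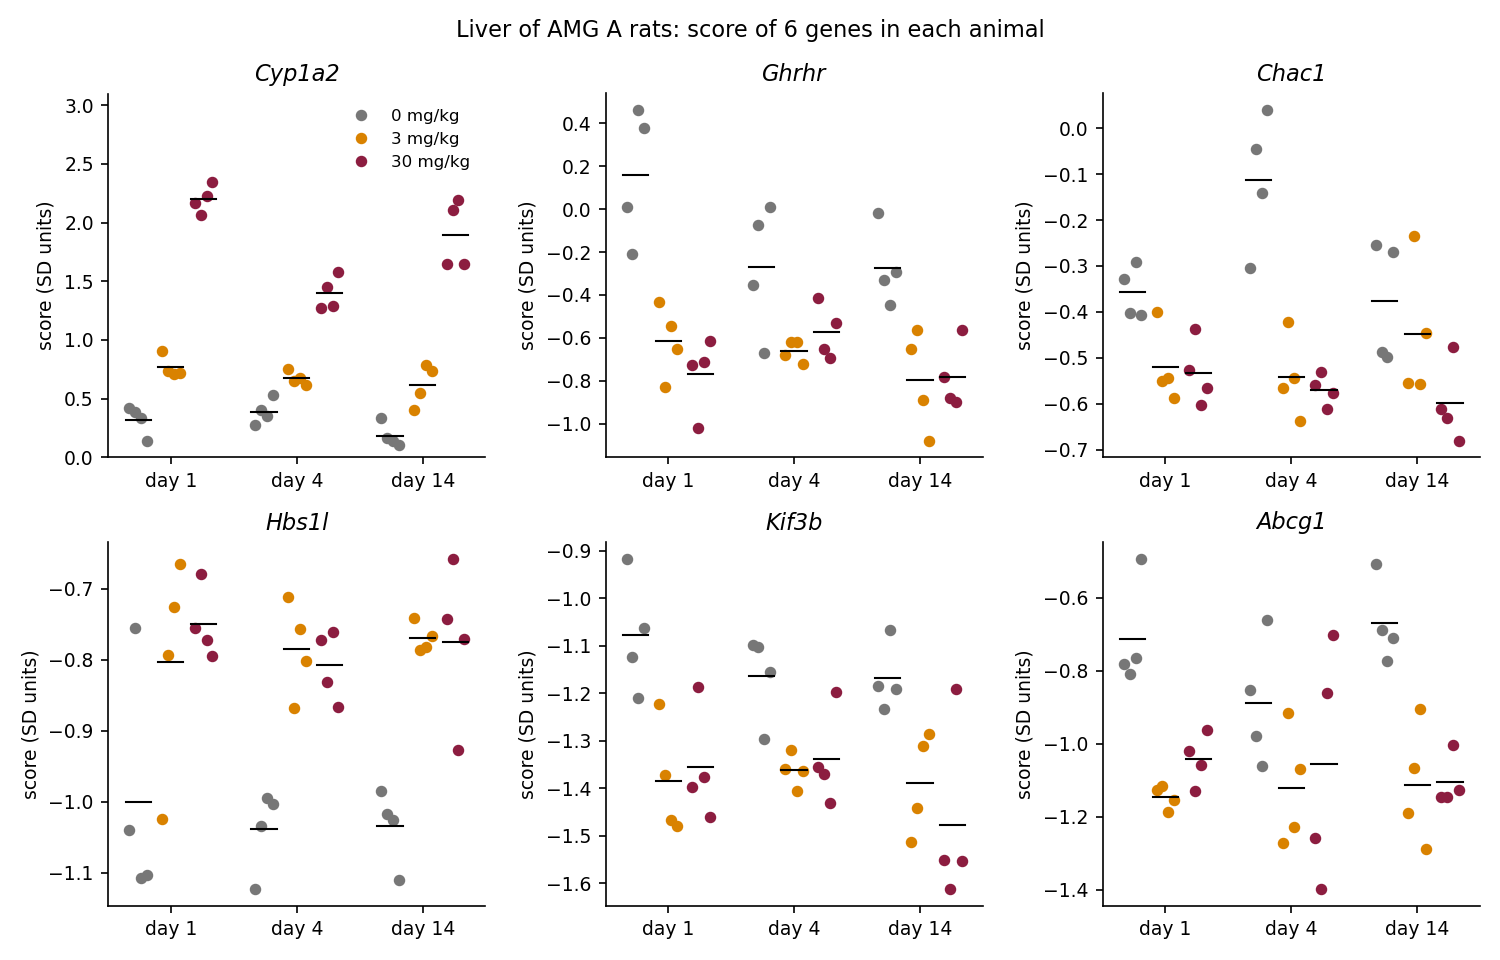
Score (SD units, vertical axis) of 6 genes in each rat, by day (horizontal axis) and dose of AMG A (grey 0, orange 3, dark red 30 mg/kg); each point is 1 rat and each bar the mean of 4. Cyp1a2 at 3 mg/kg lies between control and 30 mg/kg on each day, while Ghrhr, Chac1, Hbs1l, Kif3b and Abcg1 lie at similar scores at both doses.

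In 4 genes all treated rats lay beyond all controls of their day on each of the 3 days: Cyp1a2, Kif3b, Ppp6r2 and Ptprs. Kif3b encodes a subunit of a kinesin motor needed for cilia, and its scores ran from -1.30 to -0.92 in the controls (median -1.14) and from -1.51 to -1.22 at 3 mg/kg (median -1.37). Its pooled fall was 0.24 (95% interval -0.34 to -0.15, limma adjusted p = 0.00961). Ppp6r2, a regulatory subunit of protein phosphatase 6, ran from -0.30 to 0.08 in controls and from -0.56 to -0.21 at 3 mg/kg, a fall of 0.20 (adjusted p = 0.0134). Ptprs is a receptor tyrosine phosphatase. It fell by 0.36 on the probe set used (adjusted p = 0.00516), but its other 3 probe sets differed by 0.01, 0.07 and 0.03, so the fall belongs to 1 probe set of 4. In no gene did all 12 treated rats lie beyond all 12 controls.

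Of the 165 called genes, 163 had a difference of 1 sign on all 3 days, which 38.2% of all genes had; the call used those same days. The rises ran from 0.06 to 1.40 (median 0.31) and the falls from -0.13 to -1.20 (median -0.39). Hbs1l, a factor that rescues stalled ribosomes, rose by 0.24 (limma adjusted p = 0.00454), from a control median of -1.03 to -0.77, and 12 of 12 treated rats lay above the control median of their day. Axin1, a scaffold of the complex that degrades beta-catenin, rose by 0.35 (adjusted p = 0.00516). Abcg1, a cholesterol exporter, fell by 0.37 (adjusted p = 0.00525) on the probe set used. Its other 2 probe sets differed by -0.04 and 0.11, and the mean of its probe sets by -0.10 (adjusted p = 0.250). Coa5, an assembly factor of cytochrome c oxidase, fell by 0.45 (adjusted p = 0.00516).

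By the naming rule given below, the 12 largest rises were Vegp2, Grpca, Pcnx1, Taok2, Trappc5, Prpsap1, Jmjd6, Acp3, Grk3, Gmppa, Inhba and Prrc1. Vegp2, a secreted lipocalin of salivary and von Ebner's glands, had control scores from -2.11 to -1.13 (median -1.76) and treated scores from -1.95 to 0.32 (median -0.06). Of the 12 treated rats 11 lay above every control of their day, and 1 rat on day 4 had -1.95. The rise of 1.40 had a wide interval (0.78 to 2.03, limma adjusted p = 0.0174). Pcnx1, a large membrane protein of the pecanex family, rose by 0.93 (adjusted p = 0.0137), with day differences of 1.28, 1.20 and 0.31. Trappc5, a subunit of the TRAPP complexes that tether transport vesicles, rose by 0.77 (adjusted p = 0.0186) and by 0.65, 0.83 and 0.84 on the 3 days. Jmjd6, a nuclear hydroxylase, had treated scores of 0.06, -0.43, 0.22 and 0.16 on day 14 against controls of -1.10 to -1.51. Its pooled rise was 0.74 (adjusted p = 0.0172), made of 0.76, 0.13 and 1.32.

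Inhba, which encodes the activin A subunit, a liver growth inhibitor, ran from -1.26 to 0.00 in controls (median -0.88) and from -1.14 to 0.35 at 3 mg/kg (median -0.16). It rose by 0.60 (limma adjusted p = 0.0339). Grk3, a kinase that turns off G protein-coupled receptors, rose by 0.63 (adjusted p = 0.0395), with 1.09 on day 1 and 0.15 on day 4, where 2 controls stood at 1.33 and 1.32. Acp3, an acid phosphatase, rose by 0.66 (adjusted p = 0.0253). Prrc1 rose by 0.57 with nearly equal differences of 0.64, 0.53 and 0.55 on the 3 days (adjusted p = 0.0130). The remaining large rises were Grpca, a glutamine-rich salivary protein (0.94), Taok2, a kinase of stress signalling (0.86), Prpsap1, a partner of the enzyme that makes phosphoribosyl pyrophosphate (0.75), and Gmppa, which controls the supply of GDP-mannose (0.62). The calls of Grpca, Taok2, Prpsap1, Grk3 and Inhba were lost on leaving out 14 to 16 of the 24 rats in turn, those of Acp3 and Gmppa for 2 and 4 rats, and those of Vegp2, Pcnx1, Trappc5, Jmjd6 and Prrc1 for none.

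By the same rule, the 12 largest falls were Prl6a1, Kcna6, Il24, Cenpi, Crygb, Nrg1, Sez6l2, Uncx, Cmklr2, Dus3l, Abcd2 and Btbd17. Several are genes that adult liver is not known for: Crygb is a lens crystallin, Prl6a1 a placental hormone of the prolactin family, and Kcna6 a neuronal potassium channel. The share of the variance of a probe set that lay between tissues, over the arrays of the other table, was 0.18 for Prl6a1, 0.05 for Kcna6 and 0.14 for Crygb, against a median of 0.66 over all genes and 0.69 over the called genes. Kcna6 had control scores from 0.42 to 2.36 (median 1.91) and treated scores from -0.06 to 1.68 (median 0.34), and it fell by 1.14 (limma adjusted p = 0.0322); a second Kcna6 probe set differed by -0.95. Prl6a1 fell by 1.20 (adjusted p = 0.0277) and Crygb by 0.96 (adjusted p = 0.0401). Il24, a cytokine of the interleukin-10 family, fell by 1.08 with an adjusted p = 0.0488, and this call was lost without each of 17 rats.

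Uncx, a homeobox transcription factor, had the smallest p-value of these 12: it fell by 0.75 (95% interval -1.06 to -0.45, limma adjusted p = 0.0117), and 11 of 12 treated rats lay below every control of their day. Cmklr2, a chemerin receptor, fell by 0.73 (adjusted p = 0.0210) and its scores ran from -0.16 to 1.12 in controls and from -0.41 to 0.54 at 3 mg/kg. Dus3l, an enzyme that makes dihydrouridine in RNA, fell by 0.72 (adjusted p = 0.0172), and Abcd2, a peroxisomal fatty acid transporter, by 0.67 (adjusted p = 0.0285), with all 12 treated rats below the control median of their day in both. Btbd17 was split in the treated group: its controls lay between 0.35 and 0.72, 7 treated rats lay between -0.77 and -0.43, and the other 5 lay between 0.43 and 0.70, within the control range. Its fall was 0.67 (adjusted p = 0.0186). Nrg1, a growth factor that binds ErbB receptors, fell by 0.82 on 1 probe set (adjusted p = 0.0371), while its other 7 probe sets differed by -0.27 to 0.16. Cenpi, a centromere protein, fell by 0.98, and Sez6l2, a neuronal membrane protein, by 0.78. The calls of Kcna6, Il24, Cenpi, Crygb, Nrg1 and Sez6l2 were lost on leaving out 14 to 17 of the 24 rats in turn, those of Abcd2 and Prl6a1 for 6 and 7, and those of Uncx, Cmklr2, Dus3l and Btbd17 for none.

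**Figure D2:**
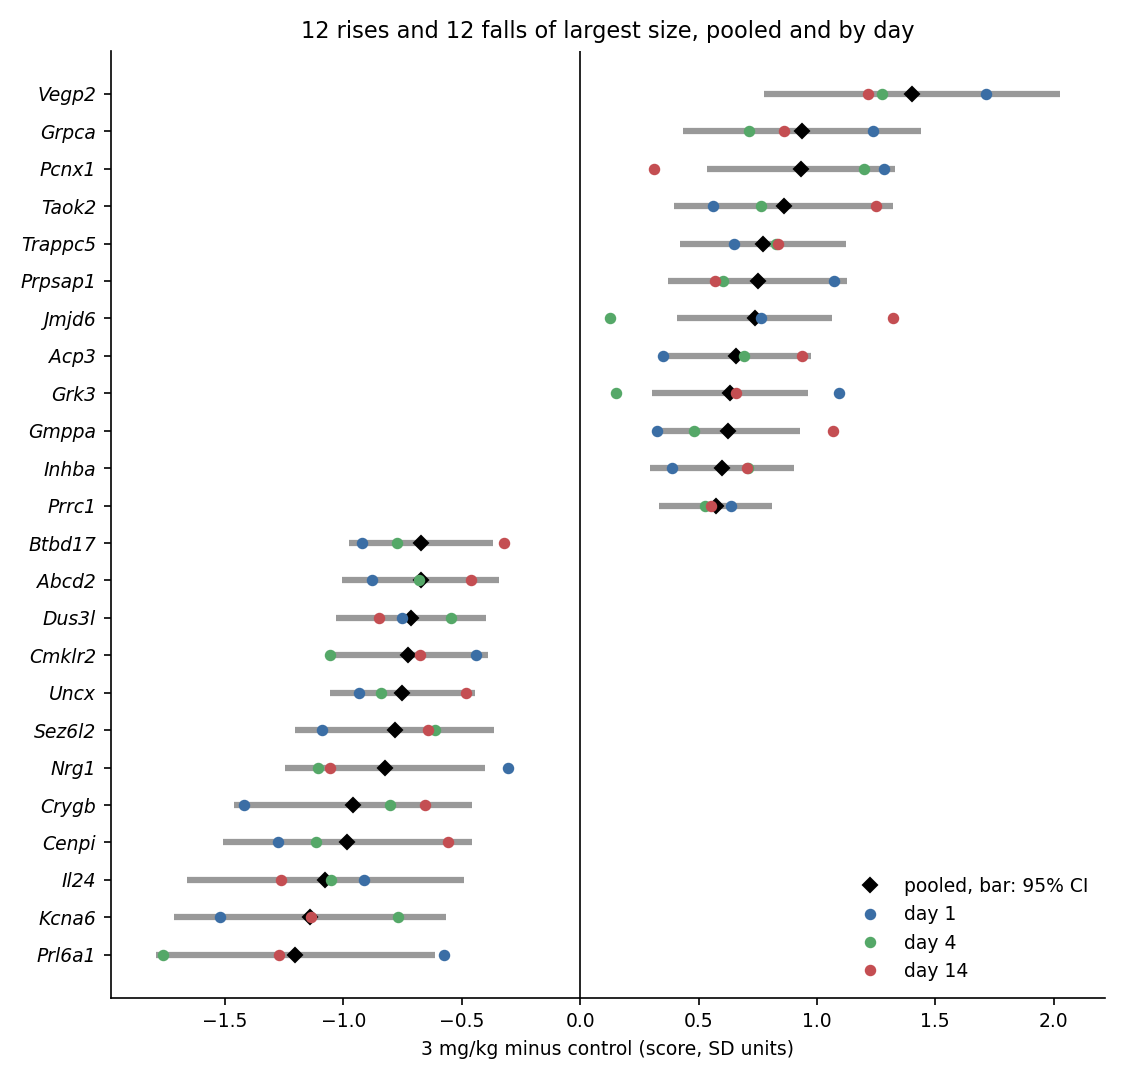
Difference between 3 mg/kg and control (score, SD units, horizontal axis) for the 12 largest rises and 12 largest falls among called genes by the naming rule. Diamonds are the pooled differences with 95% confidence intervals (grey bars) and dots the differences on day 1, 4 and 14. All dots of a gene lie on 1 side of 0, as the rule for naming required, and the day differences of Jmjd6 run from 0.13 to 1.32.

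Some called genes of the endoplasmic reticulum, Golgi and mitochondria are given next; they were picked from the called genes after the values were seen, and how often such genes occur among all genes was not counted. Srp14, part of the signal recognition particle, rose by 0.19 (limma adjusted p = 0.0064) and Sec63, of the translocation channel, by 0.24 (adjusted p = 0.0253). Sec31a, an outer coat protein of COPII vesicles, rose by 0.27 on the probe set used (adjusted p = 0.0130), while its second probe set differed by 0.04 and the mean of both by 0.15 (adjusted p = 0.362). Prkcsh, a subunit of the glucosidase that trims N-glycans, rose by 0.42 (adjusted p = 0.0064), by 0.40, 0.43 and 0.43 on the 3 days. Its control scores ran from -1.87 to -1.07 and the treated scores from -1.30 to -0.83. Pmm2, the enzyme that prepares mannose for glycans, rose by 0.45 (adjusted p = 0.0186), with Emc3, Emc10, Erlec1 and Arf4 between 0.15 and 0.21. Not all called genes of these compartments rose: Mydgf fell by 0.34 (limma adjusted p = 0.0213). Chaperones of the endoplasmic reticulum gave no calls. Of 17 listed genes 13 had a positive difference, as had 52.7% of all genes, and the median was 0.06. An unadjusted p under 0.05 was seen in 2 (Herpud1 0.59 and Manf 0.17), against 16% of all genes.

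Of mitochondrial genes, those that rose included Tomm7, of the import pore (0.32, limma adjusted p = 0.0142), the ribosomal proteins Mrps28 (0.20, adjusted p = 0.0121) and Mrps33 (0.32, adjusted p = 0.0253), Cox14 (0.23), Uqcr10 (0.19), Ndufc1 (0.56), Chchd3 (0.25) and citrate synthase, Cs, at 0.06. The calls of Ndufc1, Uqcr10 and Cs were lost without each of 15, 13 and 16 of the 24 rats, and those of Mrps33 and Chchd3 without each of 6 and 7. The other 2 probe sets of Cs differed by 0.03 and 0.00. Tomm7 ran from -1.52 to -1.26 in controls and from -1.37 to -0.73 at 3 mg/kg. Mitochondrial genes also fell: besides Coa5, Atpaf2, an assembly factor of ATP synthase, fell by 0.28 (adjusted p = 0.0218). In a list of 30 other subunits of the respiratory chain and ATP synthase, limma called 0, and 9 had an unadjusted p under 0.05, all higher. Of the 30 subunits 26 had a positive difference, as had 52.7% of all genes. The median difference of this list was 0.11, the highest of the 37 lists, against 0.01 over all genes, where 8.87% had an unadjusted p under 0.05 and a rise. Each score is scaled by the SD of its probe set over tissues, so ranks between lists depend on that SD too. By day the list median was 0.15 on day 1, 0.02 on day 4 and 0.15 on day 14. Named members were Ndufs4 (0.21), Cox8a (0.39), Ndufa8 (0.27) and Ndufs3 (0.27), with limma adjusted p from 0.131 to 0.172.

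On day 1 limma called 0 genes (0%), with 1061 at an unadjusted p under 0.05 (10.2%). The smallest p-values with no overlap belonged to Ube2m, the enzyme that conjugates NEDD8 (0.50), Dynlrb1, a dynein light chain (0.16), and Syncrip, an RNA-binding protein (0.67), on the higher side. On the lower side they belonged to Ghrhr (-0.77), Nde1, a centrosomal partner of dynein (-0.35), and Spon2, a secreted matrix protein (-0.53). All 6 had a limma adjusted p = 0.0603 on day 1. Nde1 differed by 0.01 on days 4 and 14 each. The count of day 1 was 26 without treated rat 3013, 15 without control 3002, 2 without treated rat 3015 and 1 without control 3001.

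On day 4 there was 1 call (0.00961% of the genes tested), Chac1, with 746 genes at an unadjusted p under 0.05 (7.17%). Its controls of day 4 had -0.30, -0.05, -0.14 and 0.04 and its treated rats -0.57, -0.42, -0.54 and -0.64, a fall of 0.43 (95% interval -0.58 to -0.28, limma adjusted p = 0.0385). On day 1 the controls had -0.33, -0.40, -0.29 and -0.41 against -0.40, -0.55, -0.54 and -0.59, and on day 14 -0.25, -0.49, -0.50 and -0.27 against -0.55, -0.23, -0.56 and -0.45. The treated rats ranged from -0.64 to -0.23 with no day apart, while 3 of the 4 controls of day 4 were higher than every control of the other days. The pooled fall was 0.22 (adjusted p = 0.0103), and the difference was -0.12 without day 4 (adjusted p = 0.334) and -0.25 without day 1 (adjusted p = 0.0749). Under the additive model the adjusted p was 0.0549. With only the 8 arrays of day 4 in the fit, the adjusted p of day 4 was 0.540, and the call was also lost without rats 3006, 3008, 3017, 3019 or 3020 (adjusted p = 0.0803 to 0.310) and in all in 8 of 13 alternatives. Chac1 belongs to the ATF4 programme, in which 20 listed genes were measured. In the pooled comparison Chac1 alone of these passed, against 1.58% of all genes. An unadjusted p under 0.05 was seen in 2 higher and 2 lower, against 16% of all genes. Ddit3 and Atf5 had pooled differences of 0.08 and 0.19 and Stc2 -0.49, none passing.

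On day 14 limma called 0 genes (0%), with 824 at an unadjusted p under 0.05 (7.91%). Jmjd6 (1.32), Tmem128 (0.69) and C1h19orf33 (0.63) on the higher side and Tspan18 (-2.45), Cd44, a hyaluronan receptor (-0.94), and Spam1, a hyaluronidase known from sperm (-0.75), on the lower side had the smallest p-values with no overlap, each with a limma adjusted p = 0.140. The count of day 14 was 3 without treated rat 3023 and 1 without control 3010. The test of a difference between days called 0 genes, with 497 at an unadjusted p under 0.05 (4.77%), and Chac1 had an unadjusted p = 0.00614 there.

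Each day had its own treated rats and controls, so the days can be compared with no shared animal. Of the 1061 genes with an unadjusted p under 0.05 on day 1, 71.8% had the same sign on day 4 and 72.1% on day 14, against 59.4% and 58.9% of all genes. Starting from the 746 genes of day 4, 70.8% had the same sign on day 14, against 58.0% of all genes. Across the 10411 genes, Pearson's r between 2 days was 0.24 to 0.26; genes are not independent replicates, and the arrays of all days share their processing. The groups did not overlap in 68 of the 165 called genes on day 1, in 53 on day 4 and in 66 on day 14, against 4.67%, 3.95% and 4.97% of all genes on those days; the call used the same rats.

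**Figure D3:**
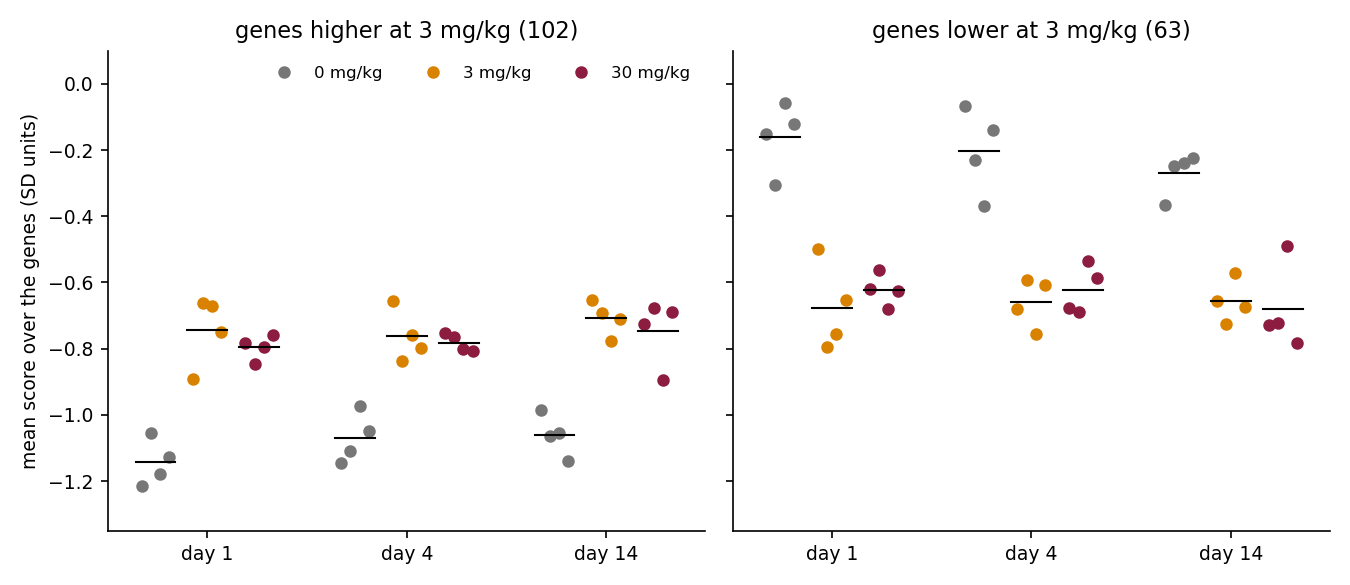
Mean score (SD units, vertical axis) of the 102 genes called higher (left) and the 63 called lower (right) at 3 mg/kg, by day and dose; each point is 1 rat, each bar the mean of 4. The genes were chosen on the grey and orange points; the rats at 30 mg/kg lie between -0.89 and -0.68 for the rises, and the rats at 3 mg/kg between -0.89 and -0.65.

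Leaving out day 4 gave 32 genes in the pooled comparison and leaving out day 14 gave 42. Leaving out day 1 gave 0 genes by limma, while 1156 genes then had an unadjusted p below the 0.05 level. Without 1 rat the count ran from 89 to 255, and 73 genes, 46 higher and 27 lower, were called in all 24 of these fits, among them Cyp1a2, Ghrhr, Chac1, Hbs1l, Axin1, Abcg1, Coa5, Kif3b, Ppp6r2 and Prkcsh. The count was moved by more than 1.5 times by 5 rats. It fell to 89 without control 3005 and to 106 without control 3010, to 97 and 95 without treated rats 3014 and 3015, and rose to 255 without treated rat 3013. Rat 3013 had a mean score of the called rises of -0.89, nearest to the controls (-1.21 to -1.05) among the treated rats of day 1.

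**Figure D4:**
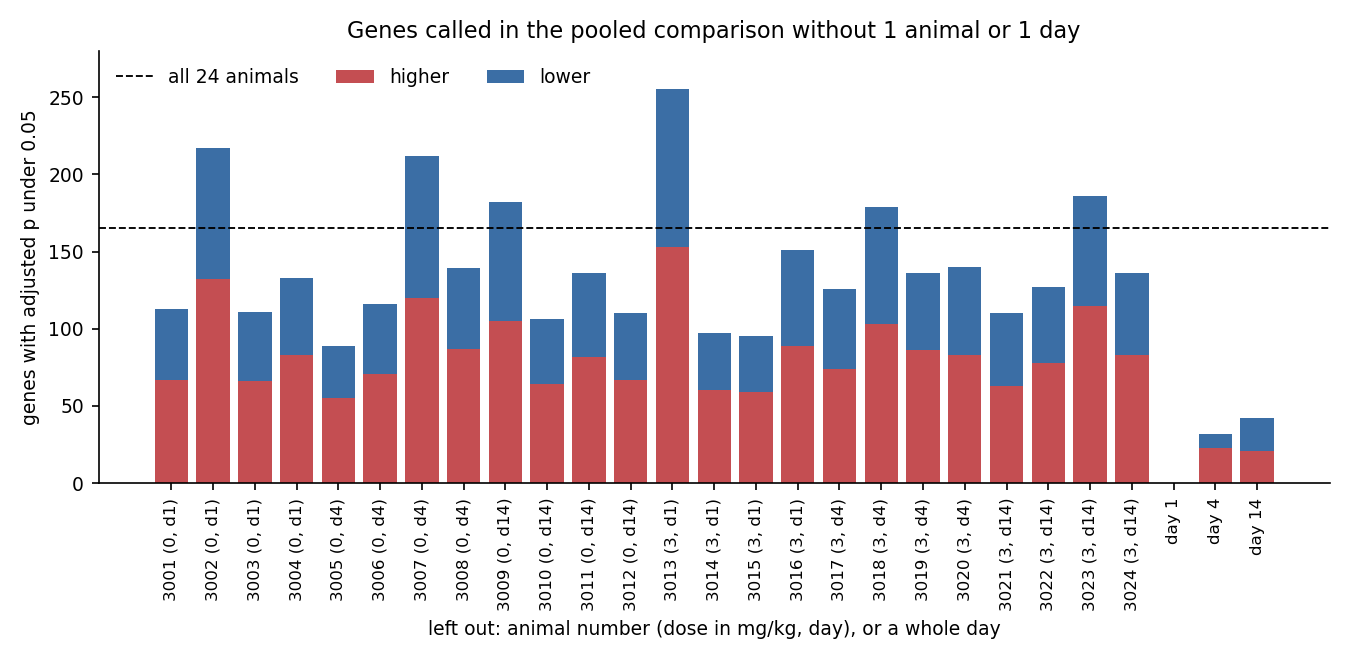
Number of genes with an adjusted p under 0.05 in the pooled comparison (vertical axis) when 1 rat or 1 day is left out (horizontal axis), split into higher (red) and lower (blue); the dashed line is the count of 165 with all 24 rats. The bar without day 1 is 0, and the tallest, 255, is the fit without rat 3013.

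At 30 mg/kg limma called 754 genes against control (7.24%). Both doses share their controls, so their calls against control were not compared. The direct test of 30 against 3 mg/kg, in which the controls cancel, called 7 genes (0.0672%), 5 higher and 2 lower, with 815 at an unadjusted p under 0.05 (7.83%). Cyp1a2 differed most clearly: its scores at 30 mg/kg were 2.07 to 2.35 on day 1, 1.27 to 1.58 on day 4 and 1.65 to 2.19 on day 14, all above those of every rat at 3 mg/kg. The difference of 1.15 (95% interval 1.02 to 1.27, limma adjusted p = 1.7e-13) came on top of the 0.39 at 3 mg/kg. Ifitm10, a membrane protein of the interferon-induced transmembrane family, was 0.54 higher at 30 than at 3 mg/kg (0.42 to 0.66, adjusted p = 2.6e-06), while 3 mg/kg differed from control by 0.04 (adjusted p = 0.772).

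The other 5 genes likewise had small differences at 3 mg/kg. Mplkip was 0.44 higher at 30 than at 3 mg/kg on the probe set used (limma adjusted p = 0.0219), and the mean of its 4 probe sets differed by 0.08 (adjusted p = 0.881). Psmc5, a proteasome ATPase, was 0.27 higher (adjusted p = 0.0422) and Fli1, a transcription factor of endothelium and blood cells, 1.02 higher (adjusted p = 0.0462). Lower were Prr12 by -0.13 and Cacna1h, a T-type calcium channel, by -0.39 (both adjusted p = 0.0219). Against control these genes differed at 3 mg/kg by 0.12, 0.00, -0.05, 0.02 and -0.04 in that order. With only the rats at 3 and 30 mg/kg in the fit, 2 calls were left, Cyp1a2 and Ifitm10, which also held without each rat in turn, while the count then ran from 2 to 10. Cyp1a2 was the only one of the 165 genes called at 3 mg/kg that was also called between the doses.

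Among the called rises, the median difference between 30 and 3 mg/kg was -0.02. The lowest was -0.56, and after Cyp1a2 the next highest was Trappc5 at 0.27. Among the falls the median was 0.00, with a range from -0.34 (Uncx) to 0.52 (Btbd17). Of the 165 called genes, 22 had an unadjusted p under 0.05 between 30 and 3 mg/kg, against 7.83% of all genes. The interval of the difference was -0.19 to 0.15 for Ghrhr and -0.15 to 0.03 for Chac1. It was -1.12 to 0.13 for Vegp2 and -0.48 to 0.70 for Prl6a1, so for these probe sets a dose difference larger than the median called change cannot be told from none. The genes were chosen on their scores at 3 mg/kg, which this contrast also holds, so these medians and the count of 22 are a description.

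AMG B at 3 mg/kg in liver, tested in other rats with their own controls and in the other table, called 15 genes (0.144%) pooled over days 1, 4 and 14, with 638 at an unadjusted p under 0.05 (6.13%). Cyp1a2 was the 1 gene called with both compounds: its AMG B rise was 0.37 (SE 0.07, 12 rats against 12, limma adjusted p = 0.0182). The AMG B scores were 0.33 to 0.61 in controls and 0.77 to 1.07 in treated rats on day 1, without overlap, and 0.31 to 0.49 against 0.58 to 0.89 on day 4, without overlap. On day 14 they were 0.33 to 1.00 against 0.71 to 1.03, with overlap. Ifitm10 had a difference of 0.33 with AMG B (adjusted p = 0.445). Among the 165 genes called with AMG A, 82 (49.7%) had the same sign with AMG B, as had 50.3% of all genes. Ghrhr differed by -0.05 and Chac1 by -0.02 with AMG B, and the difference between the compounds was not tested, since the tables were kept apart.

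Adrenal and pancreas of the same 8 rats whose livers were taken on day 14 (4 controls and 4 at 3 mg/kg) were also measured. Limma called 0 genes in adrenal (0%), with 377 at an unadjusted p under 0.05 (3.62%), and 2 in pancreas (0.0192%), with 524 at an unadjusted p under 0.05 (5.03%). Neither of those 2 genes was among the 165. The sign matched that in liver in 77 of the 165 genes in adrenal (46.7%, all genes 47.7%) and in 82 in pancreas (49.7%, all genes 49.2%), the liver sign being the pooled one, to which these rats contributed. Cyp1a2 lay between -0.93 and -0.89 in all 16 samples of those 8 rats and differed by 0.00 in adrenal and -0.01 in pancreas. The AMG A liver controls of day 14, which are in a different table, had 0.10 to 0.33. Those of AMG B, in the same table as adrenal and pancreas, had 0.33 to 1.00. Both ranges lay far above the adrenal and pancreas scores. At so low a level the lack of a difference says little.

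The AhR list held 9 measured genes, of which Cyp1a2 passed, against 1.58% of all genes. An unadjusted p under 0.05 was seen in 1 higher and 1 lower, against 16% of all genes. Cyp1a1, the most inducible AhR target, differed by 0.00 pooled (95% interval -0.04 to 0.04, limma adjusted p = 0.994) and by 0.04 between 30 and 3 mg/kg (adjusted p = 0.625). Its control median was -0.28 and its treated median -0.29. The AMG A controls of day 14 had a mean of -0.28 in adrenal and -0.30 in pancreas. These come from the other table, in which the AMG B liver controls of day 14 had a mean of -0.30. Liver thus lay close to these tissues there. At that level a difference of 0.00 does not show that the transcript was unchanged. On day 14 the rats at 30 mg/kg had -0.23, -0.21, -0.14 and -0.23, all above the controls of that day (-0.29 to -0.27). With overlap, they had -0.28 to -0.21 against -0.31 to -0.27 on day 1, and -0.30 to -0.25 against -0.30 to -0.26 on day 4. The share of all genes without overlap at 30 mg/kg was not counted. Ahr itself differed by 0.13, Aldh3a1 by -0.41, Nqo1 by -0.11 and Nfe2l2, the factor NRF2, by -0.16, none passing. The CYP2 and CYP3 drug metabolism list gave 0 calls by limma in 20 genes, 0 of them at an unadjusted p under 0.05, with the lowest differences in Cyp3a18 (-0.26) and Cyp3a23-3a1 (-0.19). Outside that list Cyp4f6, another cytochrome P450 and chosen after its values were seen, rose by 0.57 (95% interval 0.30 to 0.85, adjusted p = 0.0253), by 0.98, 0.27 and 0.46 on days 1, 4 and 14, and its call was lost without each of 4 rats. Of 16 NRF2 genes 0 passed, and 2 had an unadjusted p under 0.05, against 16% of all genes. These were Gsr, glutathione reductase (-0.24), and Gsta1, a glutathione transferase (-0.15).

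The VEGF and angiopoietin list gave 0 calls by limma in 12 genes. Of them 2 had an unadjusted p under 0.05, both lower, against 7.15% of all genes lower and 16% in either direction. Pgf, placental growth factor, ran from -0.84 to 0.20 in controls and from -1.61 to 0.21 at 3 mg/kg, a difference of -0.41 (adjusted p = 0.192). Flt1, VEGF receptor 1, differed by -0.20 pooled and by -0.33, 0.15 and -0.41 on days 1, 4 and 14 (pooled adjusted p = 0.282). Vegfa differed by 0.07 (95% interval -0.02 to 0.15), Vegfc by 0.13, Kdr, VEGF receptor 2, by -0.10 and Flt4, VEGF receptor 3, by -0.05. On their other probe sets Flt1 differed by 0.05 and -0.19, Vegfa by -0.05 and Pgf by -0.45, none passing. Between 30 and 3 mg/kg Vegfa differed by 0.08 and Flt1 by 0.05, with adjusted p of 0.638 and 0.930. Of the 15 tip cell and VEGF-responsive genes 0 passed, 4 had an unadjusted p under 0.05, all lower, as had 7.15% of all genes, and Col4a2, a basement membrane collagen, came nearest with -0.18 (adjusted p = 0.0571). Hypoxia and glycolysis genes had no call in 23 genes and a median of -0.01, with 2 higher and 2 lower at an unadjusted p under 0.05. Higher were Ldha, lactate dehydrogenase (0.34, adjusted p = 0.0519), and Ankrd37 (0.64, adjusted p = 0.0859), and lower were Pgk1, a glycolytic kinase (-0.15, adjusted p = 0.0851), and Ndrg1 (-0.04, adjusted p = 0.266).

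Markers of vessel cells are given next. In bulk liver, fewer cells of a type and less RNA per cell cannot be told apart. Of 17 endothelial genes limma called 0, and 4 had an unadjusted p under 0.05, against 16% of all genes. Tal1 (-0.62), Sox17 (-0.56) and Aplnr (-0.27) were lower and Lyl1 (0.19) higher. The mean score of the list ran from -0.69 to -0.43 in the controls and from -0.79 to -0.41 at 3 mg/kg. Of 7 sinusoidal genes 1 passed, against 1.58% of all genes: Gata4, a transcription factor of sinusoidal identity. Its scores were -0.40 to -0.14 in controls and -0.47 to -0.17 at 3 mg/kg, a fall of 0.13 (limma adjusted p = 0.0467). The call was lost without each of 17 rats. A second Gata4 probe set differed by -0.05 and did not pass. The call was also lost with the mean of the probe sets, every probe set, quantile scaling, the additive model and only the groups compared. Bmp2 (-0.20) and Dnase1l3 (-0.18) of the sinusoidal list had an unadjusted p under 0.05, which 16% of all genes had. On day 1 the median of the 7 genes was -0.23, on day 4 it was 0.01 and on day 14 -0.05.

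Markers of other cells gave no call. Stellate cell and matrix genes gave 0 calls by limma in 22 genes, 0 at an unadjusted p under 0.05, against 16% of all genes. Of the 22 genes 19 had a negative difference, while 52.7% of all genes had a positive one. The mean of the list ran from -0.80 to -0.50 in controls and from -0.92 to -0.69 at 3 mg/kg. Macrophage genes gave 0 calls in 11 genes and lymphocyte genes 0 in 13, with 0 and 1 at an unadjusted p under 0.05. Erythroid genes gave 0 calls in 8 genes, and 1 had an unadjusted p under 0.05. Their mean ran from 0.10 to 1.15 in controls and from -0.19 to 1.28 at 3 mg/kg, and the median difference was 0.25 on day 1 and -0.25 on day 14. Hepatocyte genes gave 0 calls in 18 genes, with Hpd, a tyrosine-degrading enzyme, at an unadjusted p under 0.05 (-0.13).

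The listed genes of metabolism gave 0 calls by limma. Over all genes 16% had an unadjusted p under 0.05, the share to set beside the counts that follow. An unadjusted p under 0.05 was seen in 0 of 18 cholesterol genes, 3 of 20 fatty acid synthesis genes, 1 of 21 fatty acid oxidation genes, 1 of 11 glucose and glycogen genes, 2 of 21 bile acid genes and 2 of 26 urea cycle and amino acid genes. Over all genes 52.7% had a positive difference. Fatty acid synthesis genes had 17 positive of 20 and a median of 0.08, with Dgat2, an enzyme of triglyceride synthesis, at 0.34 (limma adjusted p = 0.0914). Fatty acid oxidation genes had 17 positive of 21 and a median of 0.09, and Pdk4, which restrains glucose oxidation, was lower (-0.54, adjusted p = 0.265). Fgfr4, the receptor that curbs bile acid synthesis, had 0.19 (adjusted p = 0.0521), with 12 of 12 treated rats above the control median of their day, and Cyp7a1, the rate-limiting enzyme, 0.18 (adjusted p = 0.343). In the growth hormone list Ghrhr alone passed of 17, against 1.58% of all genes. An unadjusted p under 0.05 was seen in 3 of the 17, all lower, against 7.15% of all genes lower. Stat5a, a mediator of growth hormone, had -0.24 (limma adjusted p = 0.0645) and Socs2, its feedback inhibitor, -0.46 (adjusted p = 0.353).

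Clock genes gave 0 calls by limma in 15, with 4 at an unadjusted p under 0.05, against 16% of all genes. Bmal1 (-0.39) and Nfil3 (-0.20) were lower, and Nr1d1 (0.17) and Usp2 (0.59) higher. Of 27 cell cycle genes 0 passed, while 6 had an unadjusted p under 0.05, all lower, against 7.15% of all genes. They included Mcm5, a replication helicase subunit (-0.76), Ccnb2, a mitotic cyclin (-0.18), Cdkn3 (-0.15) and Plk1, a mitotic kinase (-0.24), with adjusted p from 0.138 to 0.226. Immediate early genes gave 0 calls in 20, with 3 at an unadjusted p under 0.05, all lower, against the same 7.15%. They had the lowest list median (-0.08), and Ccn1, a matrix signal protein, had -0.73 (limma adjusted p = 0.0862). Interferon-inducible genes had a median of 0.28 on day 1 and of -0.04 on days 4 and 14, with no call in 24 genes and 4 at an unadjusted p under 0.05. Proteasome genes had a median of 0.06 with no call in 24, 3 at an unadjusted p under 0.05, and Psmc4 at 0.41 (adjusted p = 0.157). Acute phase, cytokine, glucocorticoid-responsive and ribosomal protein lists had no call either. In that order 1 of 20, 1 of 21, 1 of 15 and 3 of 20 genes had an unadjusted p under 0.05, against 16% of all genes. Over all 37 lists, 4 of 592 distinct measured genes (0.676%) were called, against 1.58% of all genes: Cyp1a2, Ghrhr, Chac1 and Gata4. Siah2, a ubiquitin ligase of the hypoxia response (0.12), and Npw, a neuropeptide (-0.16), which were always read, did not pass.

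**Figure D5:**
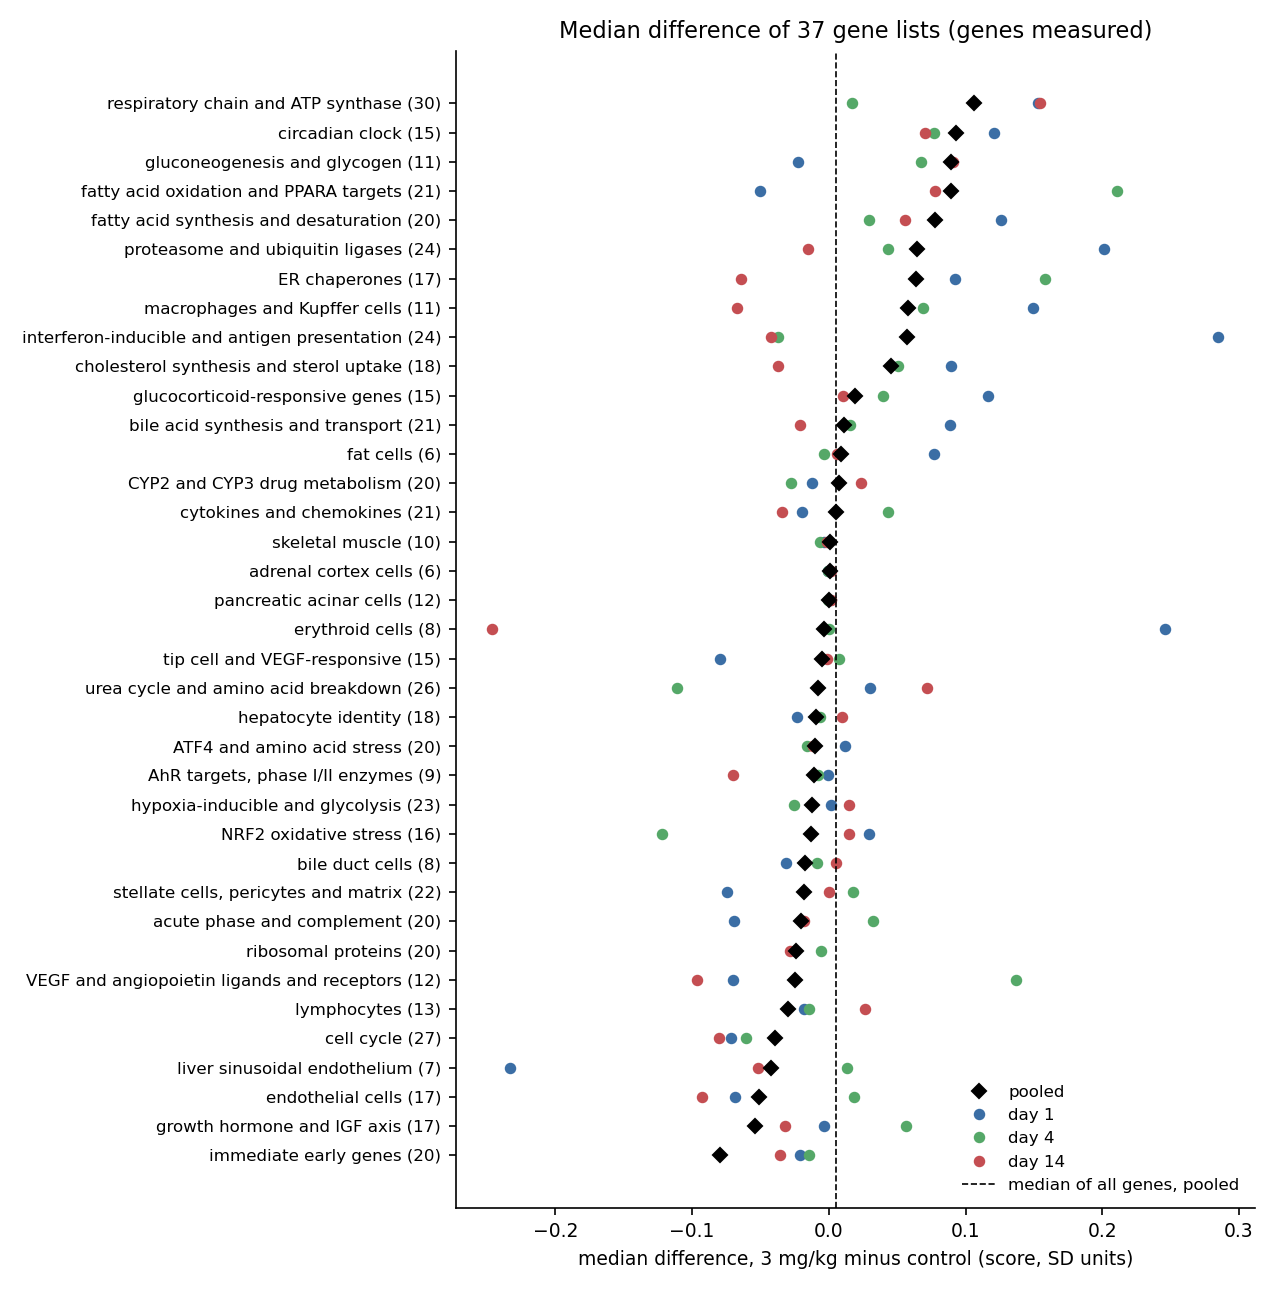
Median difference between 3 mg/kg and control (score, SD units, horizontal axis) of the measured genes of 37 gene lists, pooled (diamonds) and by day (dots), with the number of genes in brackets; the dashed line is the pooled median of all genes, 0.01. The pooled medians run from -0.08 (immediate early genes) to 0.11 (respiratory chain), and the erythroid and interferon lists spread widest between days.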

How the data were processed

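The authors deposited array values as a score, without stating how signals were summarised or scaled. Over all arrays of both deposited tables the probe sets have means near 0 and SDs near 1; whether signals were on a log scale before that is not known. The larger table entered only the tissue shares and the AMG B, adrenal and pancreas values. Per the labels, 5 ug of total RNA was labelled with biotin. Of 15866 probe sets 12783 named 1 gene, 312 several and 2771 none. Where a gene had several probe sets, the one that differed most between tissues, as a share of its variance, was used.

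A model with 1 term per dose and day (9 groups of 4 rats, 36 arrays) was fitted with limma 3.58.1 (eBayes with trend) in R 4.3.3 and tested on simulated data; tests were two-sided, adjusted over 10411 genes within each contrast. Genes were named by a rule: up to 12 pooled rises and falls of largest size, the same sign on all days, 3 rises and falls of smallest p with no overlap on a day without a call, up to 6 on others, and up to 4 per gene list by p, plus 12 measured genes always read. Outside the gene lists and the genes always read, genes with placeholder symbols such as LOC or RGD numbers were passed over. Genes picked after their values were seen are the secretory and mitochondrial sets, Hbs1l, Axin1, Abcg1, Coa5, Kif3b, Ppp6r2, Ptprs, Cyp4f6, Gata4 and Nqo1. The groups, gene lists and rules were chosen with earlier results of these data known. Alternatives changed the arrays in the fit, scaling, probe set choice, variance filter, variance prior, model, and the rats and days left out. The number of arrays limits the precision. Figures were drawn with Python 3.11.15, pandas 2.3.3, numpy 2.4.6 and matplotlib 3.10.9.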

Additional observations from a re-analysis of the deposited data

Results flagged for a closer look

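Within groups of 4 rats, 16 of 186 tests (31 genes in 6 groups each) showed 1 rat apart from the other 3 by Dixon's criterion at 95%, a gap that fills most of the group's range. Chance gives about 1 in 20.

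Rat 3013 (3 mg/kg, day 1) stood apart for Cyp1a2 at 0.90, above the others at 0.71 to 0.74, for Trappc5 at -1.79, below -0.38 to -0.20, and for Btbd17 at 0.70, above -0.58 to -0.57. For both Trappc5 and Btbd17 its score lay in or beside the control range, while for Cyp1a2 it was the highest of the group. Without this rat the pooled rise of Cyp1a2 stayed called.

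Rat 3020 (3 mg/kg, day 4) stood apart for Vegp2 at -1.95, below -0.13 to 0.22, for Inhba at -0.82, below 0.16 to 0.35, and for Nrg1 at 0.62, above -0.37 to -0.26. Rat 3023 (3 mg/kg, day 14) did so for Taok2 at -0.84, below 0.51 to 0.78, for Kcna6 at 1.68, above 0.13 to 0.36, and for Nrg1 at 0.58, above -0.54 to -0.35. In these 6 cases the rat was the one nearest to the controls.

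Single cases among treated rats were Abcd2 in rat 3015 on day 1 (-1.31), Ppp6r2 in rat 3022 on day 14 (-0.38), Ifitm10 in rat 3019 on day 4 (-0.68) and Btbd17 in rat 3021 on day 14 (-0.57). Among controls they were Ptprs in rat 3003 on day 1 (0.30), Nrg1 in rat 3002 on day 1 (-0.45) and Sez6l2 in rat 3006 on day 4 (2.18).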

How the results depend on the processing

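The pooled count of 165 genes was 125 to 182 under other arrays in the fit, quantile scaling, probe set rules, the variance filter, no trend and the additive model; 115 of the 165 were called with only the 24 compared arrays. It was 0 without day 1, 32 without day 4 and 42 without day 14, which use fewer rats, and 89 to 255 without 1 rat. On day 1 (0) it was 5 with only the groups compared, 3 with the mean of the probe sets, 4 with every probe set, 5 with the variance filter and 0 to 26 without 1 rat (15 without control 3002, 26 without treated 3013). On day 4 (1) it was 0 with only the groups compared, quantile scaling, every probe set and the variance filter, and 0 to 3 without 1 rat. On day 14 (0) it was 6 with only the groups compared and 0 to 3 without 1 rat. The test between days gave 0 to 1 without 1 rat. Between 30 and 3 mg/kg (7) the count was 2 with only the groups compared, 4 with the mean of the probe sets, 4 with the additive model and 2 to 10 without 1 rat. The cause of these moves was not tested. Over 7567 combinations of 234 gene results and alternatives, 6822 kept their side of the threshold, 664 lost a call and 49 gained one; no called value changed sign, and 32 uncalled ones did. No paired analysis was possible because the animal numbers are not shared between the groups compared.

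A score does not show how bright a probe set is, so faint and strong transcripts cannot be told apart here. Of 50 other probe sets of called genes 32 had the same sign, 7 of them with an unadjusted p under 0.05.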
